A study of Rattus norvegicus with 145 samples.

Results

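Liver RNA from 10 male rats was compared after 28 days of daily oral gavage, 5 rats given acetamide at 750 mg/kg/day (mkd) and 5 given the water vehicle alone (0 mkd). They are 10 of the 145 rats of the series and 10 of the 30 males of this time-point, whose other groups received 300, 500, 1000 or 1500 mkd. All were Crl:WI (Wistar) rats with a stated age of 8 to 10 weeks, taken here as the age when gavage began. The left liver lobe was collected on day 29, after the 28 days of dosing, and sequenced as stranded mRNA libraries. Nothing but the dose separates both groups in the labels, except that the label of the 5 control males names the dose range finding experiment. Their strain, age and animal numbers match those of the treated rats, and they are taken as the concurrent control. The 1 gene that separated males of both experiments after 7 days, Adcy10, put 0 of these 5 controls but 10 of the 25 dosed males with the other experiment, so it did not settle the label. Each replicate is a separate rat.

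Acetamide is a small amide found in food and is known as a liver carcinogen in rats at high doses. Most of the liver is hepatocytes, which make plasma proteins, bile and most of the enzymes of amino acid and lipid metabolism and which rarely divide in the adult. They can re-enter the cell cycle, and growth factor receptors at their surface, among them the hepatocyte growth factor receptor Met, the insulin receptor Insr and the neuregulin receptor Erbb3, take part in that control. Nuclear receptors that bind DNA as a pair with Rxra set much of the bile acid, lipid and xenobiotic program.

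All 10 hepatocyte markers were detected, with a summed level of 200021 to 253151 CPM (reads scaled to the size of each library with its TMM factor) in the controls and 192902 to 266621 CPM at 750 mkd. Between 22655300 and 31756800 reads fell on genes per rat. The other 10 cell type lists had medians of the log2 fold change above that of all genes tested (0.049). Of these 9 lay between 0.18 (stellate cells) and 0.35 (endothelial cells, 8 genes, summed level 138 to 229 CPM in the controls and 184 to 312 CPM at 750 mkd). The T and NK cell list had a median of 0.31 over 9 genes, with 20.2 to 42.8 CPM in the controls and 19.3 to 55.9 CPM at 750 mkd. Pancreatic acinar genes were present in traces. Of 9, 4 could be tested, with a median of 0.78 and a sum of 8.66 to 16.3 CPM in the controls and 13.2 to 47.0 CPM at 750 mkd, while Prss1 and Pnlip were at 0, as were Hba1 of erythroid cells and Lep of adipocytes. No gene of these lists was called, and the part of such cells in the results was not tested.

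Of 17337 genes listed, 11279 had enough reads to be tested. Genes count as called when they changed by 1.5-fold or more and their p from the edgeR quasi-likelihood test, adjusted after Benjamini and Hochberg, did not exceed 0.05. All adjusted p are from edgeR unless DESeq2 is named. At 750 mkd 88 genes were called, or 0.780% of those tested. The up-regulated genes numbered 28 (0.248%) and the down-regulated genes 60 (0.532%). The changes were small. The up-regulated genes had a median log2 fold change of 0.88 (0.59 to 1.72), and 10 of them rose over 2-fold. The down-regulated genes had a median of -0.82 (-1.51 to -0.59), and 16 fell by more than 2-fold. All genes tested had a median of 0.049. In bulk tissue, fewer cells of a type and less RNA per cell cannot be told apart.

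The adjusted p of the called genes lay between 0.0291 and 0.0488, so that each call sat close to the threshold. An unadjusted p under 0.05 was reached by 2582 genes (22.9%), of which 1285 were higher (11.4%) and 1297 lower (11.5%). In 22 of the 28 up-regulated and 45 of the 60 down-regulated genes the treated and the control rats did not overlap, against 722 of all genes tested (6.40%), 371 with the treated rats above (3.29%) and 351 with them below (3.11%). Under relaxed thresholds (1.4-fold, adjusted p at most 0.1) 488 genes passed (4.33%). These counts follow from the same values as the calls. Single rats moved the number of calls from 0 to 665. It was 0 in 7 of the 10 fits that each left out 1 rat, 11 without control replicate 4, 3 without control replicate 5, and 665 (161 up and 504 down, 86 of them among the 88) without treated replicate 4. That rat had the value nearest the controls among the treated in 51 of 60 down-regulated and 16 of 28 up-regulated genes.

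**Figure D1:**
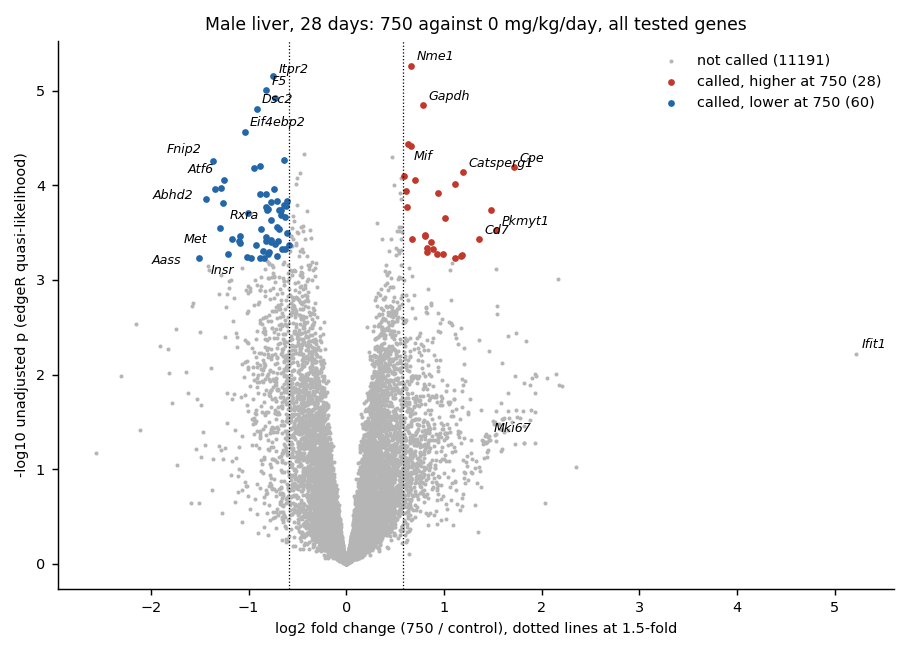
Log2 fold change at 750 against 0 mkd (horizontal axis, dotted lines at 1.5-fold) and -log10 of the unadjusted p (vertical axis) for the 11279 genes tested in 5 treated and 5 control males. The 28 up-regulated genes (red) and 60 down-regulated genes (blue) lie in a narrow band at the top, and Ifit1, at 5.22, lies lower; its treated rats lay between 0.0406 and 14.6 CPM.

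Of the 28 up-regulated genes, Nme1 and Gapdh had the lowest adjusted p. Nme1, a nucleoside diphosphate kinase, was at 10.6, 10.5, 8.41, 11.4 and 9.39 CPM in the controls (replicates 1 to 5) and at 17.2, 16.9, 16.2, 13.6 and 15.8 CPM at 750 mkd. Its lowest treated rat was above its highest control rat (log2 fold change 0.66, standard error 0.12, adjusted p = 0.0291). Gapdh, the glycolytic glyceraldehyde-3-phosphate dehydrogenase, was at 26.6, 30.7, 29.9, 36.1 and 32.7 CPM in the controls and at 61.7, 56.4, 49.9, 44.9 and 56.0 CPM in the treated rats. Again the groups did not overlap (0.79, standard error 0.15, adjusted p = 0.0291). Mif, a cytokine that restrains the action of glucocorticoids on immune cells, was at 49.8, 46.4, 53.2, 66.8 and 50.8 CPM in the controls and at 81.3, 94.0, 81.0, 81.8 and 77.3 CPM at 750 mkd, again with no overlap (0.64). Gapdh, Mif and Nme1 have close copies or pseudogenes in the genome, so their counts may be split with these or lost. Nenf, a secreted heme-binding protein with neurotrophic activity, rose from 6.66 ± 0.718 CPM (SD, n = 5) to 10.6 ± 1.35 CPM, with all 5 treated rats above all controls.

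Pkmyt1, a kinase that holds Cdk1 inactive before mitosis, was at 3.97, 2.33, 3.83, 3.57 and 2.56 CPM in the controls. At 750 mkd it was at 4.39, 12.0, 9.69, 8.74 and 12.4 CPM, so that replicate 1 lay just above the controls and the other 4 rats well above (log2 fold change 1.53, standard error 0.37, adjusted p = 0.0454). Cdkn1c, an inhibitor of cyclin-dependent kinases picked out with its values known, was at 0.446 to 0.800 CPM in the controls and at 1.17 to 1.34 CPM in the treated rats (log2 fold change 1.12). Gstp1, the pi class glutathione S-transferase that marks preneoplastic foci in rat liver, was at 4.87, 4.13, 4.92, 3.23 and 4.42 CPM in the controls and at 6.19, 9.05, 7.46, 4.63 and 12.2 CPM at 750 mkd. Here replicate 4 lay within the control range, and the other 4 rats above it (log2 fold change 0.87, adjusted p = 0.0460).

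The largest rise among the called genes was that of Cpe, carboxypeptidase E of prohormone processing, which had at most 7 counts in a control rat, or 0.113 to 0.260 CPM, and 0.264 to 1.21 CPM at 750 mkd (log2 fold change 1.72, adjusted p = 0.0412). Cd7, a surface protein of T and NK cells, was at 0.807 to 1.36 CPM in the controls and at 1.76, 3.49, 3.24, 1.09 and 3.58 CPM in the treated rats, with replicate 4 inside the control range (1.36). Il3ra, the interleukin 3 receptor alpha chain, was at 8.77 to 11.3 CPM in the controls and 12.6 to 26.4 CPM at 750 mkd (0.80). Sox17, a transcription factor of endothelium and endoderm, was at 1.41 to 1.81 CPM and 1.98 to 3.67 CPM (0.81). The 5 treated rats of Il3ra and of Sox17 were above all controls. Adam28, a membrane metalloprotease, rose from 4.13 ± 1.04 to 7.65 ± 1.53 CPM (0.89), and Aqp5, a water channel of secretory epithelia, from 1.23 ± 0.192 to 2.49 ± 0.574 CPM (1.01).

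Catsperg1, a subunit of the sperm calcium channel, rose from 3.08 ± 0.369 to 7.05 ± 2.38 CPM (1.19). Rps4y2, a ribosomal protein S4 gene, rose from 4.02 ± 1.23 to 11.3 ± 5.00 CPM (1.48), and its single short gene body resembles other S4 copies, which makes its count uncertain. Nsmf was at 14.4 to 16.7 CPM in the controls and at 21.2, 52.4, 21.7, 18.8 and 27.5 CPM at 750 mkd, where replicate 2 stood apart (0.83). Lppr2, a phospholipid phosphatase-related protein, rose by 0.83 and the uncharacterized LOC104940696 by 0.94 on the log2 scale.

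The 60 down-regulated genes were expressed at a higher level than the up-regulated ones, with a median of the mean level of 31.6 CPM against 4.68 CPM, where all genes tested had 13.9 CPM. Receptors of growth signals were among them. Met was at 53.9, 62.6, 58.6, 49.9 and 45.4 CPM in the controls and at 23.9, 12.2, 20.6, 39.5 and 13.8 CPM at 750 mkd. Every treated rat was below every control, with replicate 4 the nearest (log2 fold change -1.29, standard error 0.31, adjusted p = 0.0454). Insr was at 43.9, 54.6, 50.1, 45.0 and 38.4 CPM in the controls and at 23.0, 16.4, 17.5, 39.0 and 18.7 CPM in the treated rats. For Insr replicate 4 lay among the controls and the other 4 rats far below (-1.01, standard error 0.26, adjusted p = 0.0488). Erbb3 showed the same arrangement, from 95.4 to 145 CPM in the controls, 110 CPM in treated replicate 4 and 47.2 to 64.9 CPM in the other 4 treated rats (-0.77). Lpar2, a receptor of lysophosphatidic acid, fell from 3.34 ± 1.26 to 1.37 ± 0.252 CPM (-1.28), with no overlap.

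Rxra, the retinoid X receptor alpha, was at 143, 148, 132, 139 and 110 CPM in the controls and at 47.2, 49.2, 40.7, 97.7 and 44.5 CPM at 750 mkd. Of the treated rats, 4 were close together and replicate 4 lay between them and the controls (log2 fold change -1.27, standard error 0.29, adjusted p = 0.0414). Foxn3, a forkhead repressor, was at 25.8 to 31.8 CPM in the controls and at 12.3, 7.24, 13.1, 22.9 and 7.76 CPM in the treated rats (-1.17). Atf6, a membrane-bound transcription factor released by unfolded protein in the endoplasmic reticulum, was at 38.4, 48.7, 43.6, 41.0 and 41.0 CPM in the controls and at 15.2, 14.7, 16.6, 29.2 and 13.3 CPM at 750 mkd (-1.25, adjusted p = 0.0412). Ern1, the kinase and RNase sensor known as IRE1, and Sel1l, a part of the degradation complex of the same membrane, both picked out with their values known, fell by 0.94 and 0.71 on the log2 scale. Of 20 tested genes of the heat shock and endoplasmic reticulum chaperone list 0 were called, and the median was 0.14. At an unadjusted p under 0.05, 3 were higher and 0 lower, beside 11.4% higher and 11.5% lower over all genes tested.

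Abcc2, the pump that exports conjugated bilirubin and other anions into bile, was at 603, 469, 716, 452 and 498 CPM in the controls and at 209, 235, 394, 373 and 269 CPM at 750 mkd. The groups did not overlap (log2 fold change -0.89, adjusted p = 0.0412). F5, coagulation factor V, was at 359, 355, 319, 299 and 279 CPM in the controls and at 189, 196, 148, 211 and 170 CPM in the treated rats, again without overlap (-0.82, standard error 0.15, adjusted p = 0.0291). Among the called genes Aass, the first enzyme of lysine degradation, had the largest fall at -1.51, but its rats were spread widely, from 143 to 396 CPM in the controls and from 39.1 to 181 CPM at 750 mkd, where 4 of 5 treated rats were below all controls.

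Abhd2, a lipid hydrolase, was at 299, 307, 378, 339 and 308 CPM in the controls and at 69.1, 73.2, 131, 245 and 86.6 CPM at 750 mkd, with every treated rat below every control (-1.43). Fnip2, a partner of folliculin in nutrient sensing, was at 30.0 to 81.7 CPM and 15.0 to 28.0 CPM (-1.36). Eif4ebp2, which holds the cap-binding factor of translation inactive, fell from 83.0 ± 9.75 to 40.3 ± 11.5 CPM (-1.04). Itpr2, the main calcium release channel of hepatocytes, fell from 76.8 ± 6.29 to 45.6 ± 7.83 CPM (-0.75, adjusted p = 0.0291). Uhmk1, a kinase of splicing factors, fell by 1.34, Fam129a by 1.09 and Mob1b, an activator of the Hippo kinases, by 1.09 on the log2 scale. Dsc2, a desmosomal cadherin, fell by 0.92 and Zcchc11, which adds uridines to RNA ends, by 0.73. In each of these 9 genes all treated rats lay below all controls.

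**Figure D2:**
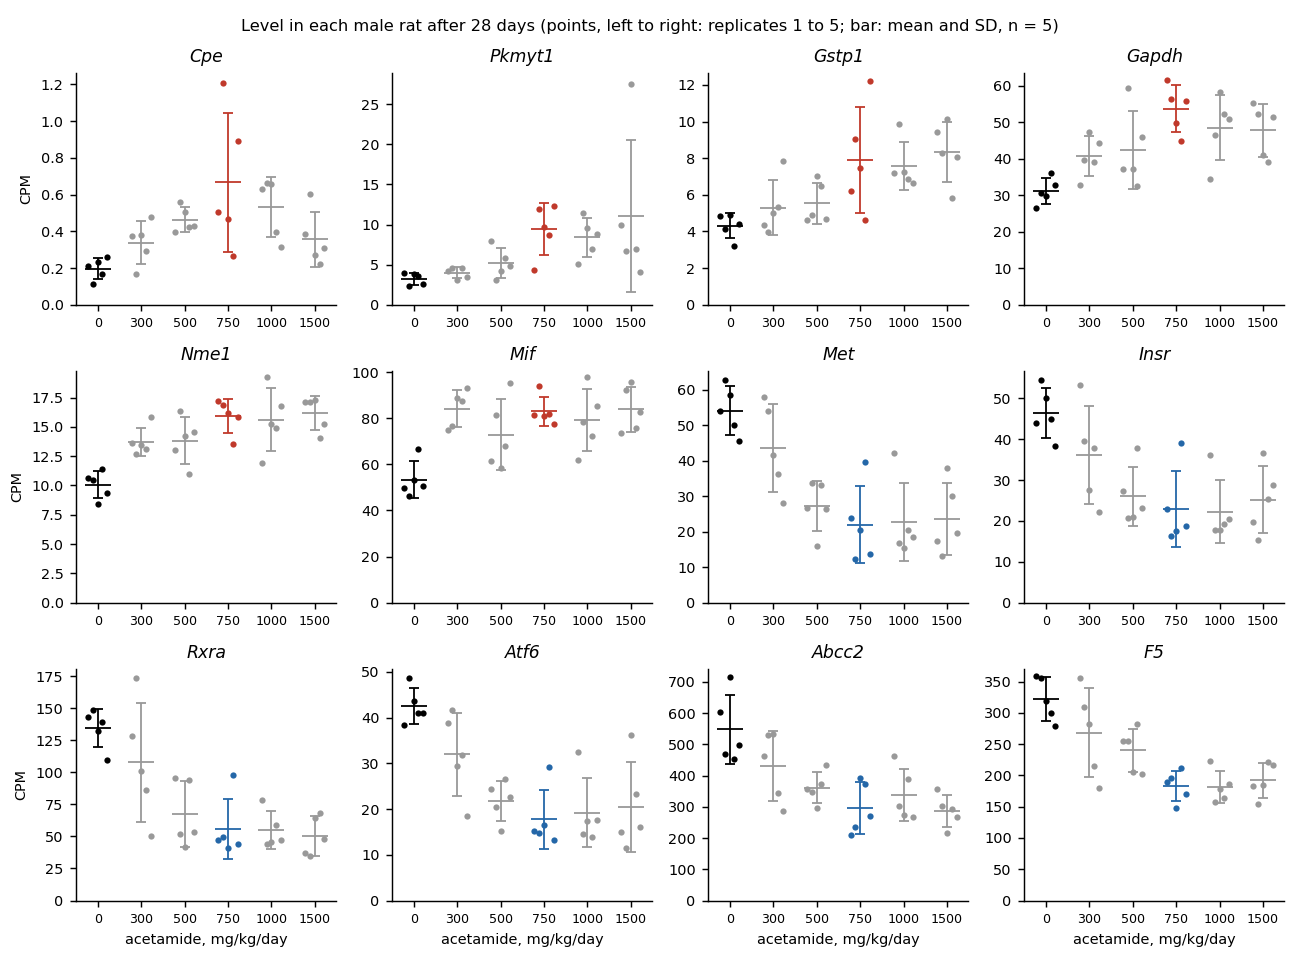
Level (CPM, vertical axis) of 12 genes in every male rat after 28 days, by dose (mkd, horizontal axis); points are rats and bars the mean and SD of 5 rats. Black is the control, red and blue the 750 mkd group. At 750 mkd Nme1, Gapdh and Mif lie above and Met, Rxra, Atf6, Abcc2 and F5 below all 5 control rats, while the replicate 4 point of Insr (39.0 CPM) reaches the control range.

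Among the 22 pathway lists, 8 held a called gene, each at most 2. The S phase list (38 genes tested) and the G2/M phase list (46 genes tested) held 0 called genes, with medians of 0.42 and 1.08 against 0.049 for all genes tested. At an unadjusted p under 0.05, 12 S phase genes were higher and 0 lower, and 17 G2/M genes were higher and 1, the chromatin insulator Ctcf, lower. Over all genes tested 11.4% were higher and 11.5% lower at that p. In 19 of 46 G2/M genes and 5 of 38 S phase genes all 5 treated rats were above all 5 controls, where the share over all genes tested is 3.29%. Cdk1, the kinase that drives entry into mitosis, was at 3.65, 0.713, 2.51, 1.98 and 0.928 CPM in the controls and at 5.83, 7.02, 7.62, 11.6 and 4.71 CPM at 750 mkd (log2 fold change 1.90, standard error 0.70, adjusted p = 0.115). Mki67, the proliferation antigen Ki67, was at 9.43, 3.56, 4.69, 4.88 and 3.04 CPM and at 11.0, 14.4, 12.5, 22.1 and 9.87 CPM (1.45, standard error 0.69, adjusted p = 0.211). For both genes the groups did not overlap, and neither passed the criteria. These p come from the fit of all 30 males, which includes a 1500 mkd rat with 243 CPM of Mki67. With only the control and 750 mkd groups in the fit, the adjusted p of Mki67 was 0.0591. The part of that rat in the spread was not tested.

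The mean log2 CPM of the 84 S and G2/M genes was 1.56 ± 0.262 (SD, n = 5) in the controls and 2.31 ± 0.270 at 750 mkd. The lowest treated rat, at 2.01, was above the highest control, at 1.89. The doses of 300, 500 and 1000 mkd gave 1.82 ± 0.0924, 2.10 ± 0.277 and 2.33 ± 0.272. The highest dose gave 2.59 ± 1.30, with rats between 1.33 and 4.79. These groups share the control rats. Here treated replicate 4, which was nearest the controls in most called genes, had the highest score of its group.

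**Figure D3:**
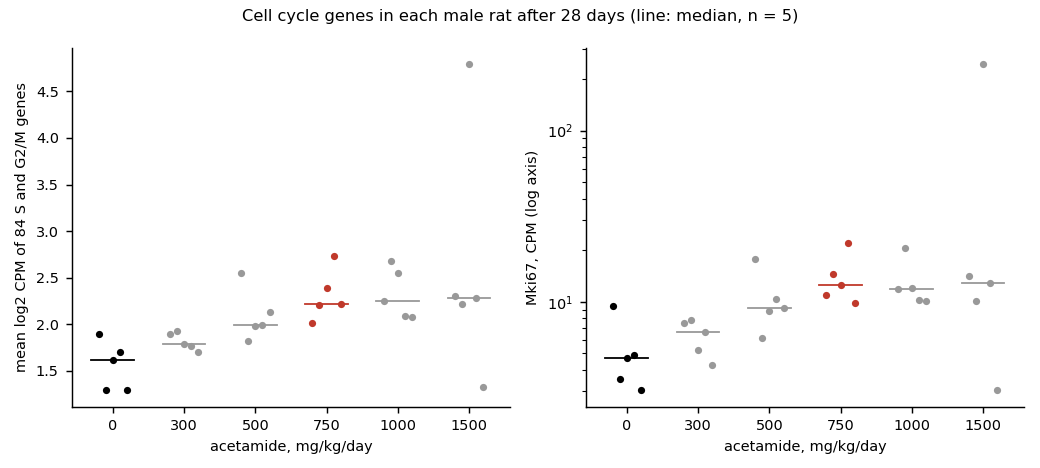
Mean log2 CPM of 84 S and G2/M genes (left) and CPM of Mki67 on a log axis (right) in each male rat after 28 days, by dose in mkd; lines are medians of 5 rats. The 5 rats at 750 mkd (red) lie between 2.01 and 2.73 on the left and between 9.87 and 22.1 CPM on the right, above the controls (black).

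In the growth hormone and insulin-like growth factor list, 16 genes were tested, Insr was called, and the median was -0.40. At an unadjusted p under 0.05, 6 of the 16 were lower and 0 higher, where 11.5% of all genes tested were lower and 11.4% higher. They include Stat5b, the factor that carries the growth hormone signal to the nucleus, which averaged 26.3 ± 5.00 CPM in the controls and 17.0 ± 3.33 CPM at 750 mkd (-0.63, adjusted p = 0.0757), and Igf1, the growth hormone induced hormone of the liver, at 713 and 546 CPM (-0.38, adjusted p = 0.174). Of 30 complement and coagulation genes, F5 was called, 7 were lower and 0 higher at an unadjusted p under 0.05, and the median was -0.11. Of 22 growth factor and immediate early genes, Met and Erbb3 were called (median 0.023), and 2 were higher and 3 lower at an unadjusted p under 0.05. Over all genes tested 0.532% were called down. Of 58 genes of amino acid catabolism and the urea cycle, Aass was called, and the median was -0.021 with 2 genes higher and 5 lower at an unadjusted p under 0.05.

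In the NRF2 list of 25 tested genes Gstp1 was called up and Abcc2 down, and the median was 0.30. At an unadjusted p under 0.05, 6 of the 25 were higher and 1 lower. Taldo1, the transaldolase of the pentose phosphate pathway, passed the adjusted p at 0.0412 with all treated rats above all controls (71.6 and 100.3 CPM), but at a log2 fold change of 0.48 was under the fold criterion. In the preneoplasia and progenitor list of 11 tested genes Gstp1 was called and the median was 0.32, with 4 higher and 0 lower at that p. This list overlaps the NRF2 list in Gstp1. The summed level of the preneoplasia list was 25.0 to 38.9 CPM in the controls and 39.3 to 50.6 CPM at 750 mkd. Abcc2 was also the called gene of the 22 tested bile acid genes (median -0.24), with 0 higher and 4 lower at an unadjusted p under 0.05. Over all genes tested 0.248% were called up and 0.532% down. At that unadjusted p 11.4% were higher and 11.5% lower.

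In the interferon list Ifih1, a sensor of double-stranded RNA, was the called gene of 49 tested. It was at 37.1, 42.6, 37.2, 38.1 and 50.0 CPM in the controls and at 30.1, 17.8, 27.7, 25.6 and 15.3 CPM at 750 mkd, without overlap (-0.81, adjusted p = 0.0414). Of this list 3 genes were higher and 9 lower at an unadjusted p under 0.05, with a median of -0.14. Over all genes tested 11.4% were higher and 11.5% lower at that p. Zc3hav1, an antiviral RNA-binding protein, and Mpeg1, a pore-forming protein of macrophages, both outside that list and picked out with their values known, fell by 0.89 and 0.82 on the log2 scale. The list median of the 13 tested Kupffer cell and macrophage genes was 0.25, with 0 called.

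The other 14 pathway lists held 0 called genes. Their medians lay between -0.27 (serine synthesis and the ATF4 response, 25 tested) and 0.14 (cytochrome P450 families 1 to 3, 28 tested, and chaperones), apart from the cell cycle lists given above. Cholesterol synthesis (25 tested, -0.11), fatty acid and triglyceride synthesis (24 tested, -0.047) and the PPAR-alpha targets (41 tested, -0.034) had 2, 4 and 5 genes lower and 0, 0 and 2 higher at an unadjusted p under 0.05, beside the 11.5% lower and 11.4% higher of all genes tested.

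Of 10 genes followed because the study names them or, for Mki67, as a proliferation marker, 0 passed the criteria here. The study names its genes across its doses and experiments, not for 750 mkd alone. Ifit1, an interferon-induced gene, was at 0 to 0.223 CPM in the controls and at 14.6, 4.40, 0.117, 0.0587 and 0.0406 CPM at 750 mkd, so that 2 rats carried its log2 fold change of 5.22 (adjusted p = 0.0947). Hebp2 was at 0.348 to 2.56 CPM and at 0.936, 0.560, 0.977, 10.0 and 7.92 CPM, again high in 2 rats (2.21, adjusted p = 0.123). Acot1, an acyl-CoA thioesterase, was at 0.572 to 2.11 CPM in the controls and 0.691 to 5.49 CPM at 750 mkd, largely overlapping (0.62, adjusted p = 0.756). Slc7a1, a transporter of cationic amino acids, averaged 2.50 ± 2.81 and 0.883 ± 0.421 CPM (-1.50, adjusted p = 0.0812), and control replicate 5 alone had 7.43 CPM. Cyp17a1, a steroid hydroxylase, averaged 52.2 ± 20.6 and 30.1 ± 7.41 CPM (-0.80, adjusted p = 0.116). The checkpoint kinase Chek2 was at 1.60 to 2.06 CPM in the controls and at 2.38 to 3.64 CPM in the treated rats, without overlap (0.70, adjusted p = 0.221). Cenpw, Parpbp and Prom1 had log2 fold changes of 1.29, 0.68 and 0.43 (adjusted p = 0.323, 0.570 and 0.392). With only the control and 750 mkd groups in the fit, Chek2 had an adjusted p of 0.0715 and Cenpw 0.0997. In that fit Parpbp had 0.394, Prom1 0.311, Cyp17a1 0.0904 and Acot1 0.563, while Hebp2 (0.159) and Slc7a1 (0.155) had higher values than above.

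Promoter sequences were available in the RefSeq table (build GRCr8, 250 bases before to 50 after the gene start) for 15 of the 28 up-regulated and 46 of the 60 down-regulated genes. Letters of motifs linked to cell cycle and basal transcription were searched on both strands. The CCAAT box (CCAAT) was in 3 of 15 up-regulated (20.0%) and 17 of 46 down-regulated promoters (37.0%), against 38.1% of the 8576 promoters of tested genes and 37.7% of all 27457 promoters. The cell cycle homology region (TTTGAA or TTCGAA) was in 1 (6.67%) and 3 (6.52%), against 13.5% of the tested genes and 19.5% of all. An E2F site (TTTCCCGC or TTTGGCGC) was in 0 and 1 (2.17%), against 2.92% of the tested genes and 1.53% of all. Among the G2/M phase genes 30 of 41 promoters (73.2%) had a CCAAT box and 29 (70.7%) a cell cycle homology region, and of the S phase genes 11 of 29 (37.9%) had an E2F site. The promoters of 4 genes are shown 5′ to 3′ on the strand of the gene, with the motif letters found in capitals. Abhd2, Foxn3 and Gapdh represent the called genes with repeated CCAAT boxes, with the E2F site, and with the cell cycle homology region (as its complement TTCAAA), and Mki67, which was not called, the G2/M pattern with both motifs, of which the last pair overlaps by 1 base.
Abhd2, chr1:142626498-142626797, plus strand: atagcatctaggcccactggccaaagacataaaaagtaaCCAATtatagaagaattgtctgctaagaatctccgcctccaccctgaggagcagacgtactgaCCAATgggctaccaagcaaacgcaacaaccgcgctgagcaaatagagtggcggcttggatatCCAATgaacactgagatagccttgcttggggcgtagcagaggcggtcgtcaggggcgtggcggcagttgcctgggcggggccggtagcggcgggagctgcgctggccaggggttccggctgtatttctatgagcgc
Foxn3, chr6:124571991-124572290, minus strand: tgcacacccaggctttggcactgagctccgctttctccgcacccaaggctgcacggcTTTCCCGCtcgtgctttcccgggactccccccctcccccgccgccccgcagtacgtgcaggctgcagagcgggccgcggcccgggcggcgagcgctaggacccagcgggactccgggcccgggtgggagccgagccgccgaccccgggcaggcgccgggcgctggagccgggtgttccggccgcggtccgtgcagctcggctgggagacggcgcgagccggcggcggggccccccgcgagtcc
Gapdh, chr4:159652418-159652717, minus strand: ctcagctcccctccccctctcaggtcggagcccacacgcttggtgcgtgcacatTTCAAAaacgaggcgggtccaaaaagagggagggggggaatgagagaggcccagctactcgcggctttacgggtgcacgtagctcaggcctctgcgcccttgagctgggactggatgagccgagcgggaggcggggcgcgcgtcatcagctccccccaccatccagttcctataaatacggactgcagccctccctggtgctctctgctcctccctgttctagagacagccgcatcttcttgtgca
Mki67, chr1:199952544-199952843, minus strand: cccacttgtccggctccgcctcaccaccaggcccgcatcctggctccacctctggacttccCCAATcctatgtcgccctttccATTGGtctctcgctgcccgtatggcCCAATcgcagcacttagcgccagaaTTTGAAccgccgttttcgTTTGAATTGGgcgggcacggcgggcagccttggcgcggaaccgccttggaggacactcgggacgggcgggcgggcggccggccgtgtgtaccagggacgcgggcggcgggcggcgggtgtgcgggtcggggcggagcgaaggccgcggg

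The 750 mkd group was also set against its neighbouring doses. Against 500 mkd 0 genes were called in edgeR and 0 with DESeq2, with 910 genes (8.07%) at an unadjusted p under 0.05. Between 1000 and 750 mkd 0 were called with either tool, with 334 genes (2.96%) at an unadjusted p under 0.05. The 28 up-regulated genes had median log2 fold changes against the control of 0.31, 0.46, 0.70 and 0.78 at 300, 500, 1000 and 1500 mkd, and the 60 down-regulated genes -0.28, -0.59, -0.73 and -0.76. The doses share the control rats, and the genes were called on 750 mkd. Met averaged 43.5 ± 12.4, 27.3 ± 7.13, 22.7 ± 11.1 and 23.7 ± 10.1 CPM at these doses, beside 54.1 ± 6.82 in the controls and 22.0 ± 10.9 at 750 mkd. Mif was already at 84.2 ± 7.94 CPM at 300 mkd, beside 83.1 ± 6.37 at 750 mkd, and Pkmyt1 was at 3.97 ± 0.675 CPM at 300 mkd and 5.17 ± 1.86 CPM at 500 mkd, beside 9.43 ± 3.20 at 750 mkd. Pkmyt1 differed from 500 mkd by a log2 value of 0.86 (standard error 0.36, adjusted p = 0.587). Log2 fold changes at 1500 mkd ran from 0.22 to 1.77 in the 28 and from -1.67 to -0.48 in the 60. At 1000 mkd, 4 of the 28 and 39 of the 60 lay above their 750 mkd level. Met, Mif, Pkmyt1, Rxra, Nme1 and F5 had an adjusted p under 0.05 at 1000 and 1500 mkd. Sox17 (0.190 and 0.493), Aass (0.0820 and 0.0987), Cd7 (0.104 and 0.129) and Adam28 (0.0624 and 0.0731) did not. Cpe (0.162) and Rps4y2 (0.132) did not at 1500 mkd. At 1000 mkd Fam129a (0.203), Dsc2 (0.160), Lppr2 (0.119), Catsperg1 (0.0855), Ifih1 (0.0845), LOC104940696 (0.0816) and Nsmf (0.0667) did not.

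The same dose was given to rats that played no part in these calls. In females after 28 days 21 genes were called at 750 mkd (0.183%), and in males after 7 days 0 (865 genes, or 7.65%, at an unadjusted p under 0.05). In the females 60 of the 60 down-regulated genes were lower, with a median of -0.46, and 26 of the 28 up-regulated genes higher, with a median of 0.33, where 50.0% of all genes tested were higher. Of these, Pkmyt1 was called in the females as well, at 1.84 ± 0.695 CPM in their controls and 6.06 ± 2.04 CPM at 750 mkd (log2 fold change 1.72, adjusted p = 0.0337). In males after 7 days 53 of the 60 were lower (median -0.19) and 19 of the 28 higher (median 0.15), where 51.0% of all genes were higher. The genes are not independent, and the shares of all genes are not matched for gene span, which is described below.

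The response to 750 mkd was compared between these sets in interaction tests. Between the sexes 0 genes differed in edgeR and 0 with DESeq2, with 496 genes (4.27%) at an unadjusted p under 0.05. Between 28 and 7 days in males 1 gene differed (0.00872%), Cpe, with a log2 difference of 2.35 (standard error 0.45, adjusted p = 0.0400). Its level in the males after 7 days was 0.549 ± 0.136 CPM in the controls and 0.346 ± 0.162 CPM at 750 mkd. The differences of the 28 up-regulated genes between the sexes had a median of 0.55 and those of the 60 down-regulated genes -0.34, with the males further from 0. Since the genes were called in these males, this direction follows from their choice.

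**Figure D4:**
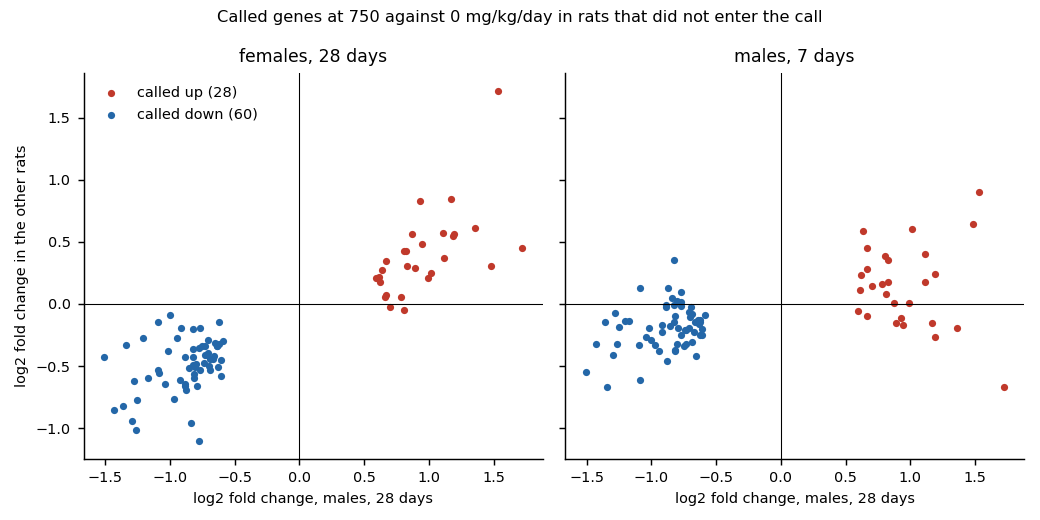
Log2 fold change at 750 against 0 mkd of the 88 genes called in males after 28 days (horizontal axis) and in rats that did not enter the call (vertical axis), females after 28 days (left) and males after 7 days (right). In the females all 60 blue points lie below 0 and 26 of the 28 red points above it, and in the males after 7 days 53 and 19 do.

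The called genes differed in the length of their gene bodies, which the call did not use. By RefSeq gene models (GRCr8) the up-regulated genes spanned a median of 6.80 kb (25 of 28 with a span) and the down-regulated genes 50.3 kb (60 of 60), against 23.2 kb over all genes tested. The trend went through all genes. From the shortest to the longest quartile of span the median log2 fold change was 0.19, 0.097, -0.011 and -0.12, and Spearman's rho across 11110 genes, which are not independent, was -0.33. Ribosomal protein genes, short and chosen here after seeing the data, had a median of 0.32 over 72 tested, 0 of them called.

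The mean log2 CPM of the longest minus the shortest quartile was -0.125, -0.0881, -0.0909, -0.236 and -0.331 in the control rats and -0.496, -0.705, -0.401, -0.222 and -0.575 at 750 mkd. Treated replicate 4 had the value nearest 0 and lay inside the control range, and the other 4 treated rats lay below all controls. The medians at 300, 500, 1000 and 1500 mkd were -0.296, -0.373, -0.516 and -0.505. They were -0.138 and -0.223 in control and 750 mkd males after 7 days, and -0.396 and -0.557 in the females after 28 days. The median log2 fold change at 750 mkd ran from 0.052 (shortest quartile) to -0.069 (longest) in these females. In the males after 7 days it ran from 0.069 to -0.073. With offsets that remove each rat's trend over span, chosen after seeing the data, 35 genes were called (12 up, 23 down), 33 of them among the 88. Met (-1.16), Rxra (-1.13) and Nme1 (0.64) were among the named genes that kept their calls. Insr (-0.87, adjusted p = 0.0524), Gstp1 (0.64, adjusted p = 0.105), Abcc2 (-0.79, adjusted p = 0.0524) and Pkmyt1 (1.41, adjusted p = 0.0685) lost them. So did Aass, Aqp5, Cd7, Fam129a, Ifih1, Il3ra, Lppr2, Mob1b, Nenf, Nsmf, Rps4y2 and Sox17, with adjusted p from 0.0511 (Ifih1) to 0.106 (Sox17). Reads not assigned to a gene made up 40.0 to 42.6% of the counts of the controls and 41.8 to 44.2% at 750 mkd. The part of RNA quality or library preparation in the trend was not tested.

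**Figure D5:**
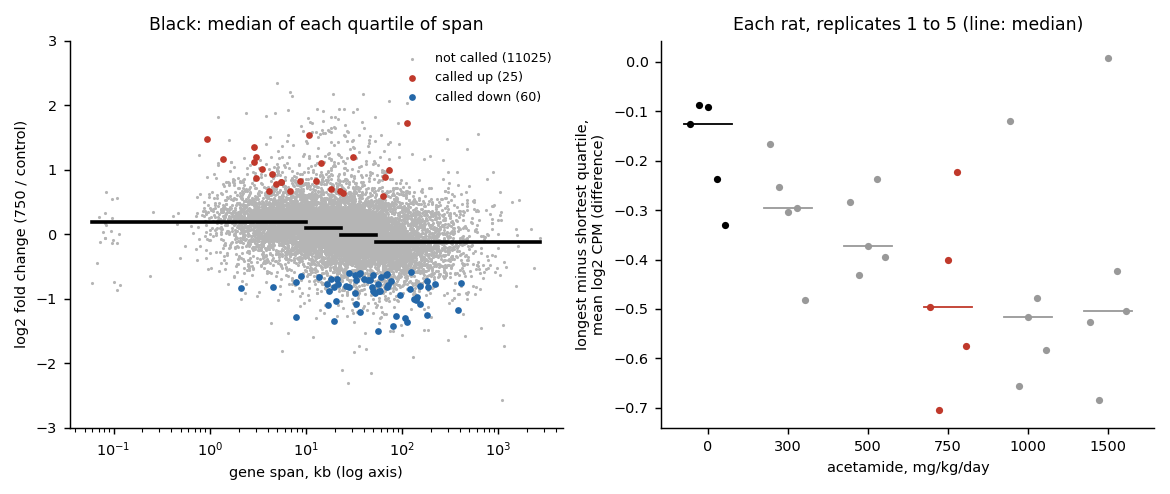
Left, log2 fold change at 750 against 0 mkd and gene span in kb (log axis) with the median of each quartile of span as black lines; 1 gene lies outside the vertical range. Right, mean log2 CPM of the longest minus the shortest quartile in each male rat by dose in mkd, with group medians; 4 of the 5 rats at 750 mkd (red) lie below all controls (black).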

How the data were processed

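Total RNA of the left liver lobe was sequenced as 75-base single-end TruSeq Stranded mRNA reads. The authors trimmed the reads with Trimmomatic, aligned them to Rn6 with Bowtie2 and counted them on gene models with HTSeq, and they deposited raw counts without normalization. The strand setting is not given in the sources used here. The 5 HTSeq summary rows, 40.0 to 44.2% of the counts of the 10 rats, entered neither the library sizes nor the tests. Per-sample columns left out number 0, and no columns were identical.

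Counts were analysed with edgeR 4.0.16 in R 4.3.3 (TMM, filterByExpr, quasi-likelihood F-test), with the 6 male groups of the time-point in a single fit. Log2 CPM carry a prior count of 2. Interactions were fitted over both data sets. The code was tested on simulated data. The 33 gene lists and the members were chosen with earlier results of these data known. Named genes are the called genes with the largest changes (10 each way at a mean of at least 1 CPM and without overlap, 5 each way at any level), the 5 each way with the lowest adjusted p, those in a list, those that the study names, with Mki67, and those called in an interaction. Promoters and gene spans are RefSeq, GRCr8. The results were recomputed with the DESeq2 1.42.0 Wald test, its size factors, other count filters, a replicate block and only the compared groups. Further runs left out each rat of the compared groups, or used other thresholds or offsets over gene span. Rats of other doses, which share the estimate of spread, were not left out singly. Depth limits genes of few reads, such as Cpe.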

Additional observations from a re-analysis of the deposited data

Results flagged for a closer look

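The response of Cpe to 750 mkd differed between 28 and 7 days in males, by a log2 value of 2.35 in the interaction test. It was 1.72 after 28 days and -0.67 after 7 days, at a level of at most 1.21 CPM in every rat of the 4 groups.

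In 11 of 100 sets of 5 rats examined for the named genes and the library measures, 1 rat stood further from the others than Dixon's limit allows. Chance gives about 1 in 20 for independent, normally distributed values. These sets share the same rats and hold mostly CPM of chosen genes, so that share is not a strict yardstick here. In the 750 mkd group replicate 4 was the highest for Atf6 (29.2 CPM, the next 16.6), Erbb3 (109.9 CPM, the next 64.9), Rxra (97.7 CPM, the next 49.2) and Parpbp (3.23 CPM, the next 1.37). Replicate 2 of that group was the highest for Nsmf (52.4 CPM, the next 27.5) and Mif (94.0 CPM, the next 81.8), and replicate 5 for Slc7a1 (1.63 CPM, the next 0.821). Among the controls, replicate 5 was the highest for Slc7a1 (7.43 CPM, the next 2.23), replicate 4 the highest for Hebp2 (2.56 CPM, the next 0.561) and the lowest for Sox17 (1.41 CPM, the next 1.71), and replicate 1 the highest for Mki67 (9.43 CPM, the next 4.88).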

How the results depend on the processing

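The 88 genes called at 750 mkd became 108 with DESeq2's size factors (27 up, 81 down), 64 without a filter on low counts (10 up, 54 down) and 119 with at least 10 counts in every rat (28 up, 91 down). The Wald test of DESeq2 called 310 (60 up, 250 down, 83 of them among the 88). A fit of the control and 750 mkd groups alone called 26 (8 up, 18 down, 14 among the 88), 137 passed the adjusted p with no minimum fold, and 488 passed a fold of 1.4 and an adjusted p of 0.1. The offsets over gene span gave 35. Leaving out 1 of the 10 compared rats gave 0 to 665 genes. What the replicate numbers stand for is not given in the sources used here. The deviations of same-numbered rats correlated at -0.19 to 0.28, and 1 of 5 rats correlated best with its own number. With the replicate number as a block 178 genes were called, 88 of them shared.

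For the difference between 28 and 7 days the 1 gene became 0 with no filter, 0 with at least 10 counts in every rat, 0 with only the compared groups in the fit, 2 with DESeq2, and 0 to 2 without single rats. The comparisons with 500 and 1000 mkd and between the sexes gave 0 genes in every alternative run. Of 626 values of the 37 named and called genes under the alternatives, 376 lost the call and 0 changed direction. Acot1 changed direction, to -0.21 without treated replicate 4, within a range up to 0.83 over the fits without 1 treated rat. Ifit1 was called with DESeq2 and without treated replicate 4 (adjusted p = 0.0212 and 0.0410), and Slc7a1 with DESeq2 (0.0301). Beside the results that lost calls, the cause was not tested.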
